A study of Arabidopsis thaliana with 4 samples.

Results

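The pseudo-response regulators are a small Arabidopsis gene family, and the 6 genes described here are TOC1 (AT5G61380), PRR3 (AT5G60100), PRR5 (AT5G24470), PRR7 (AT5G02810), PRR9 (AT2G46790) and APRR2 (AT4G18020). They were chosen by locus identifier, from 27444 protein-coding genes on the 5 nuclear chromosomes. A peak was assigned to a gene when it shared at least 1 bp with the annotated gene span or the 3000 bp on either side. The peaks come from ChIP-seq of seedlings overexpressing MYC-tagged RVE5, a MYB-like REVEILLE transcription factor. There were 3 ChIP replicates precipitated with anti-MYC antibody and 1 input DNA library without antibody. All of them came from seedlings aged 14 days, raised at 22 °C under 16 h light and 8 h dark, held at 29 °C for 12 h and collected at zeitgeber time 12 h, counted in hours after lights-on. The deposited data used here were 1 peak list per ChIP replicate, and no list of the input was used here. The promoter driving RVE5-MYC is not given in the labels, and no untagged or wild-type plants were included, so binding of overexpressed RVE5-MYC and recurrent antibody background cannot be told apart. No label says whether the replicates were grown apart, so their spread may be technical.

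Proteins of this family carry a receiver-like domain that lacks the phosphate-accepting aspartate of true response regulators. PRR9, PRR7, PRR5, PRR3 and TOC1 are expressed in turn from morning to evening, end in a CCT domain, and act in the clock, most of them as transcriptional repressors of CCA1, LHY and other morning genes. CCA1, LHY and the REVEILLE proteins are related MYB-like factors that recognise the evening element, and RVE8, a close relative of RVE5, is known as an activator of PRR5 and TOC1. APRR2 differs from the clock members by a GARP-type DNA-binding domain. No genome sequence was used here, so elements within the peaks were not examined.

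RVE5-MYC peaks were found in all 3 replicates at PRR7, PRR5, TOC1 and APRR2, and in no replicate at PRR3 or PRR9. Thus 4 of the 6 genes had a shared region, meaning merged overlapping peaks with a contribution from every list, whereas 1.7% of all protein-coding genes did. All 6 genes had spans (2343 to 4781 bp) above the protein-coding median of 2078 bp, and the part of window length in these counts was not tested. The same 4 genes had a peak in each list taken alone, against a background of 5.59%, 6.61% and 7.02% of protein-coding genes in replicates 1, 2 and 3. The 4 genes held 5 regions and 15 peaks, since PRR5 had a pair of separate regions, called near and far here by their distance from the gene. No gene of the family had a peak in only 1 or 2 of the lists.

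The 3 lists held 676, 827 and 864 peaks, with median folds of 2.581, 2.526 and 2.501. This fold is the authors' value for each peak: its height over a local background, as given in its own list. The sources used here do not say whether that background came from the input, so the lists may share it. The fold ranks peaks within a list and is no measure of occupancy on a common scale. Library totals are unknown. The median pileup at a summit, the number of overlapping reads there, was 38, 39 and 40. Merging gave 199 shared regions, and replicates 1, 2 and 3 held the lowest fold at 32.2%, 31.7% and 36.2% of them, so no list was low throughout.

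**Figure D1:**
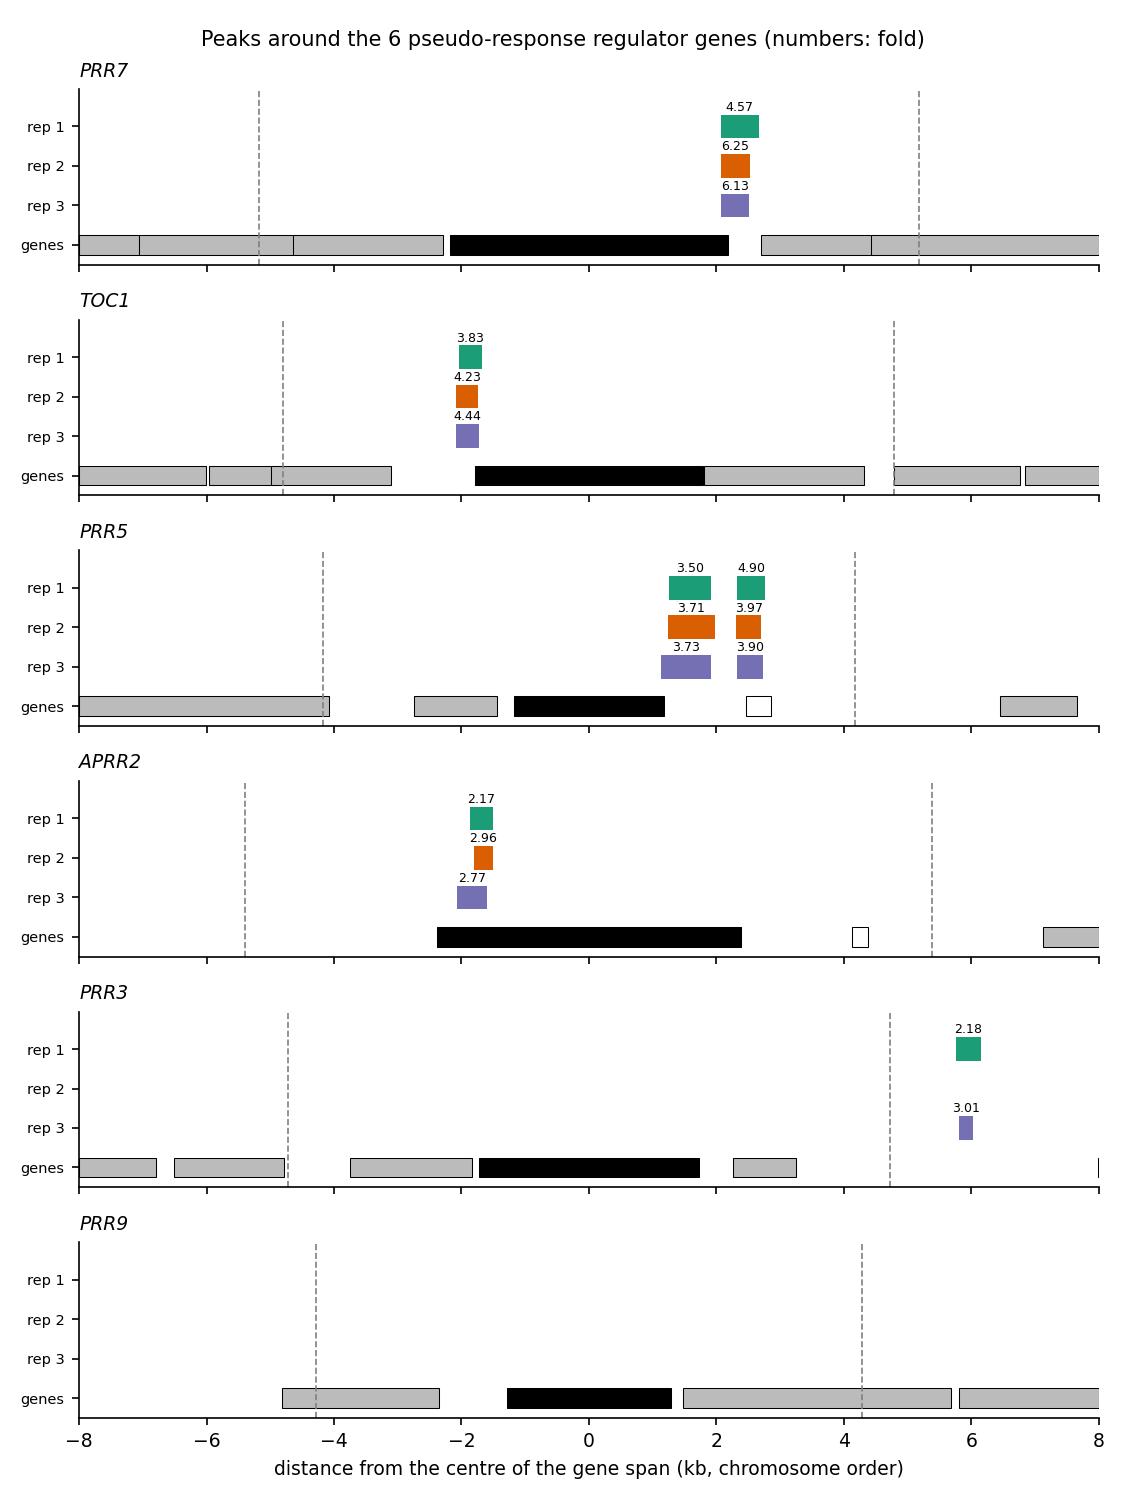
Peaks of the 3 ChIP replicates (coloured bars, with the fold above each) around the 6 genes, by distance in kb from the centre of the gene span in chromosome order. Black boxes are the family members, grey boxes other protein-coding genes, white boxes long non-coding RNA genes, and dashed lines mark 3000 bp on either side of the member; PRR7, TOC1 and PRR5 have their peaks at or beyond a gene end, APRR2 inside the gene, and the windows of PRR3 and PRR9 hold none.

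PRR7, a daytime clock repressor, had the region with the highest mean fold of the family, although the far PRR5 region had the higher fold in replicate 1 and the higher mean pileup (92.0 reads at PRR7, against 101 reads at the far PRR5 region). The PRR7 fold was 4.57, 6.25 and 6.13 in replicates 1, 2 and 3, with a pileup of 70, 102 and 104 reads. Replicate 1 was the low value, and its exact 95% Poisson interval for the pileup (54.6 to 88.4) overlapped those of replicate 2 (83.2 to 123.8) and replicate 3 (85.0 to 126.0). These intervals cover counting error only and treat each read as independent. Such overlap is no test of whether the counts differ, and the counts are not scaled to library totals, which are unknown. The coefficient of variation of the fold, 16.6%, was higher than at 87.9% of the shared regions. The position, in contrast, was nearly the same in every list: the 3 summits lay within 8 bp of each other, where the median spread over shared regions was 75.0 bp. The region spanned chromosome 5 from 641921 to 642518 (TAIR10), and the summits lay 91 to 99 bp outside the gene span. Between PRR7 and its neighbour RHL2 there are 523 bp without protein-coding annotation, and the region ended 36 bp short of RHL2, so position alone does not assign it to PRR7. That end was set by replicate 1 alone, and the peaks of replicates 2 and 3 ended at 642389 and 642368. Every peak reached 96 to 110 bp into the PRR7 span, and none reached RHL2. In replicate 1 the peak ran further than in the others and covered all 82 bp of the tRNA gene AT5G02815, with its summit outside it.

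TOC1, the evening member and a repressor of CCA1 and LHY, had folds of 3.83, 4.23 and 4.44 in replicates 1, 2 and 3, with pileups of 66, 75 and 83 reads. Its 3 summits fell within 46 bp, at 90, 136 and 100 bp outside the gene span, and each peak reached 58 to 111 bp into the gene. The region (chromosome 5 from 24674663 to 24675073) ranked 22 of 199 shared regions by mean fold. It stood 1006 bp from the neighbouring gene AT5G61370 and began within the 1305 bp that separate that gene from TOC1. The peaks of PRR7 and TOC1 thus shared a layout, with summits 90 to 136 bp outside the annotated span and a stretch of each peak inside it. The gene table used here has no strand, so whether this gene end is the start or the finish of transcription is not stated.

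PRR5, an afternoon member of the repressor series, was the only gene of the family with more than 1 region. In replicates 1, 2 and 3 the far region had folds of 4.90, 3.97 and 3.90, and the near region had folds of 3.50, 3.71 and 3.73. The far region was the higher in every list, but the margin was 1.401 in replicate 1 and 0.27 and 0.17 in replicates 2 and 3. The mean difference was 0.61 ± 0.69 (SD, n = 3 lists), less than its own spread. An exact two-sided permutation test over the lists gave p = 0.25, the smallest value that 3 lists allow, and without replicate 1 the mean difference was 0.22. Read pileup separated the regions more evenly: it was 111, 95 and 96 reads at the far region and 66, 66 and 73 reads at the near region (mean difference 32.3 ± 11.4 reads, SD, n = 3; exact permutation p = 0.25).

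Pileup divided by fold gives the approximate level of the local background that each peak was set against. At PRR5 it was 22.6, 23.9 and 24.6 reads for the far region and 18.9, 17.8 and 19.6 reads for the near region in replicates 1, 2 and 3. The mean of the far region, 23.7 reads, was above that of 97.5% of the shared regions. The pileup of the far region was 1.68, 1.44 and 1.32 times that of the near region, whereas its fold was 1.4002, 1.07 and 1.04 times as high. The part of the local background in the order of these regions was not tested.

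In shape and position the PRR5 regions also differed. The far peaks were 449, 389 and 403 bp wide, and the near peaks were 652, 741 and 784 bp wide in replicates 1, 2 and 3. The near region therefore ranked 18 of 199 shared regions by merged width. Its summits sat toward the gene, 120 to 276 bp from the gene-side edge and 507 to 531 bp from the other edge. The near summits lay 207 to 296 bp outside the PRR5 span, and only the replicate 3 peak touched the gene, by 41 bp. The far summits lay 1358 to 1402 bp outside it and within 44 bp of each other. In every list the far summit was inside AT5G03755, a long non-coding RNA gene of 391 bp that the annotation places beside PRR5. Summits of the near and far region were 1128 ± 57.4 bp apart (SD, n = 3), and 335 bp without a peak in any list separated the regions (chromosome 5 from 8359689 to 8360145 for the far region, and from 8358506 to 8359353 for the near region). The nearest protein-coding gene on the other side, AT5G24480, was 3686 bp from the far region. Across PRR5, its neighbour AT5G24460 was 2581 bp from the near region. The near region therefore also fell within 3000 bp of AT5G24460, whereas the far region did not.

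**Figure D2:**
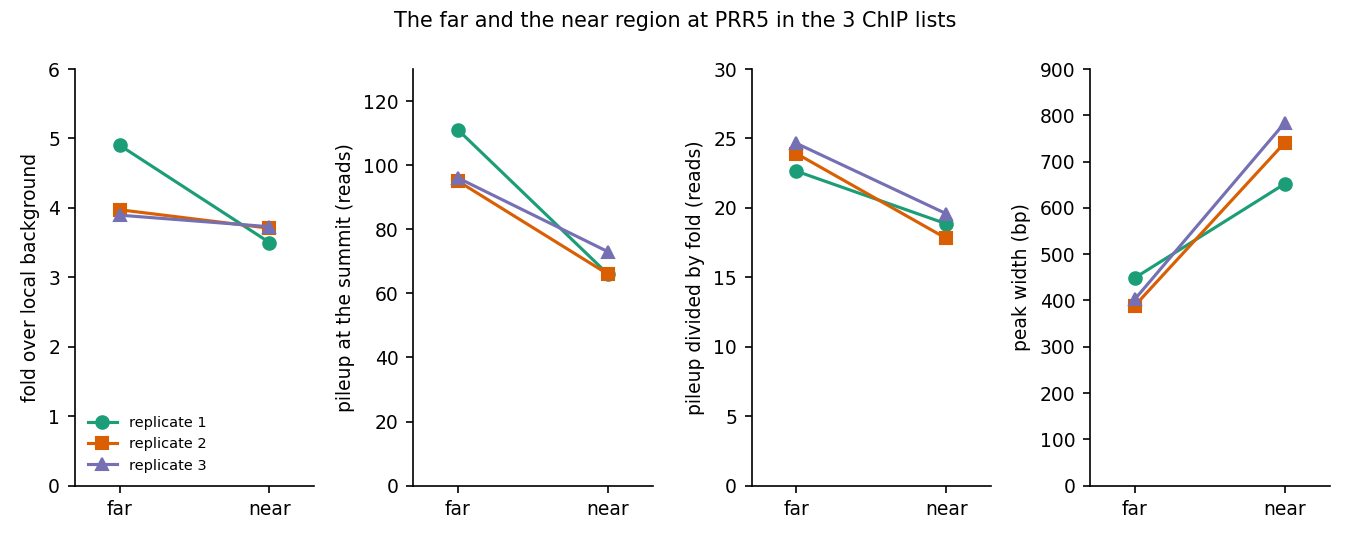
Fold, pileup, pileup divided by fold, and width of the peak at the far and the near region of PRR5, with 1 line per ChIP replicate. Fold and pileup were higher at the far region in all 3 lists, with the fold of replicates 2 and 3 nearly level (3.97 against 3.71, and 3.90 against 3.73), and the far peaks were the narrower ones.

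The near region was the most even of the family across replicates, with a coefficient of variation of 3.45%, below that of all but 7.04% of the shared regions. Genes with more than 1 shared region in their window were few: 12 of the 467 protein-coding genes with any (2.57%). ELF3, a part of the evening complex, was another of these among the clock genes examined. Its regions had folds of 3.38 ± 0.348 and 2.71 ± 0.530 (SD, n = 3). Their summits were spread over 502 and 374 bp, against 89 and 44 bp at the near and far PRR5 regions.

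APRR2 had the lowest fold of the 5 regions in every list. Its folds were 2.17, 2.96 and 2.77 in replicates 1, 2 and 3, so that replicate 1 was below the median of its list and the other two were above theirs. The pileups were 36, 41 and 40 reads, close to the median summit of each list, and their Poisson intervals overlapped widely (25.2 to 49.8, 29.4 to 55.6 and 28.6 to 54.5). By p-value the peak ranked 573 of 676 in replicate 1, 200 of 827 in replicate 2 and 281 of 864 in replicate 3. All 3 peaks lay wholly inside the gene, with summits 533 to 864 bp from the nearer end. Those summits were spread over 331 bp, wider than at 93.5% of the shared regions, and 36.9% of the merged region (chromosome 4 from 10003165 to 10003733) was common to the lists, against 72.6% to 83.2% at the 4 regions of the clock members. APRR2 was lost from the count when summits had to agree within 100 bp, and when each list was limited to the better 50% of its peaks by p-value. TOC1, PRR5 and PRR7 remained in both cases.

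**Figure D3:**
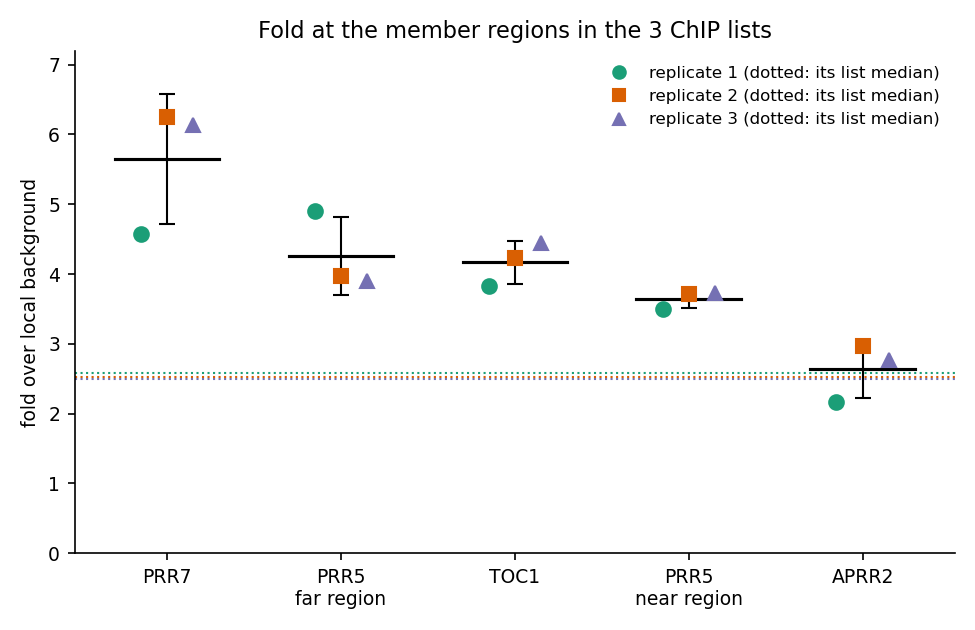
Fold over the local background at the 5 regions in each ChIP replicate (points), with mean and SD over the 3 lists (black) and the median fold of each list (dotted lines). The 4 regions of PRR7, PRR5 and TOC1 lie above the list medians in every replicate, and APRR2 straddles them.

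By mean fold the order was PRR7 (5.65 ± 0.937), the far PRR5 region (4.26 ± 0.560), TOC1 (4.17 ± 0.308), the near PRR5 region (3.65 ± 0.126) and APRR2 (2.63 ± 0.416; SD, n = 3 lists for each). PRR7 and the far PRR5 region overlapped in their ranges, and PRR7 was the higher in 2 of 3 lists. The far PRR5 region and TOC1 overlapped as well, with TOC1 the higher in 2 of 3 lists. The range of TOC1 lay above that of the near PRR5 region, which in turn lay above that of APRR2. The order from first to last was identical in replicates 2 and 3, with PRR7 first, and in replicate 1 the far PRR5 region was first. These regions took ranks 7, 18, 22, 52 and 154 of the 199 shared regions, where the median of the mean fold was 3.00.

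**Figure D4:**
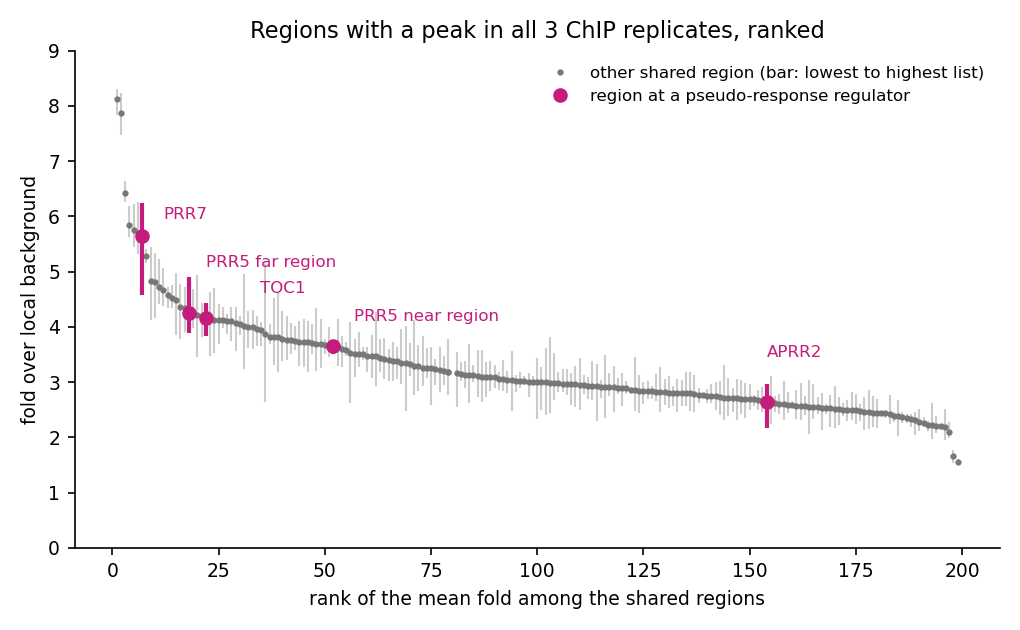
Mean fold of the 199 shared regions against their rank, with bars from the lowest to the highest list. The 5 regions at pseudo-response regulators are coloured: PRR7, the far PRR5 region and TOC1 are at ranks 7, 18 and 22, the near PRR5 region is at 52 and APRR2 at 154.

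PRR3, which binds TOC1 and shields it from degradation, had no peak within 3000 bp in any list. Just beyond that limit, peaks of replicates 1 and 3 began 4038 and 4083 bp from the gene, with folds of 2.18 and 3.01 and pileups of 38 and 50 reads. They lay on the far side of PUM18, and their nearest gene was TOE2, a repressor of flowering, 2170 and 2048 bp from the summits. In replicate 2 the nearest peak was 55993 bp away. Of the regions counted within the limit, the far one at PRR5 was the most distant, with summits 1358 to 1402 bp from the gene.

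PRR9, the morning member, was farther from any peak. The nearest stood 10072 bp away, in replicate 3 alone, with a fold of 2.39 and its summit 102 bp from CCA1, the morning MYB-like gene, with 3 protein-coding genes between the peak and PRR9 on chromosome 2. In replicates 1 and 2 the nearest peaks were 93463 and 101038 bp away, and the nearest shared region was 101310 bp away. PRR3 and PRR9 were in this like most genes, as 12.8% of protein-coding genes had a peak of any list in their window. The lowest folds that the lists held were 1.53, 1.61 and 1.53, but few peaks were that low. In replicate 1 a fold of 1.99 already ranked 664 of 676. The fold below which signal at PRR3 and PRR9 would go unlisted is therefore not known, and it may lie above these minima.

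Among 22 other clock genes, 6 had a shared region in the same window, beside the 1.7% of all protein-coding genes. They were the flowering and clock gene GI (8.12 ± 0.2502), the blue-light F-box gene FKF1 (4.67 ± 0.354), CHE (3.43 ± 0.370), and the evening complex genes ELF3 (3.38 ± 0.348), ELF4 (3.29 ± 0.725) and LUX (3.29 ± 0.416; fold, SD, n = 3 for each). The region at CHE (AT5G08330), a TCP factor known to repress CCA1, was 1293 bp from the gene. PRR7 thus stood below GI and above FKF1 in mean fold, and APRR2 stood below all 6. Of 19 relatives by domain, 17 of them response regulators of cytokinin signalling and 2 the GARP factors GLK1 and GLK2, none had a shared region. ARR16, named after its values were seen, had a peak in replicates 1 and 3 with a mean fold of 2.33 ± 0.0209 (SD, n = 2), and so 1 of the 19 had a region in at least 2 lists, where 4.25% of protein-coding genes did.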

How the data were processed

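Per the labels, chromatin was fixed with formaldehyde, sonicated and precipitated with anti-MYC antibody. The submitters' processing notes name CASAVA 1.4 and the build TAIR10. The sources used here do not name the aligner, the peak caller, its threshold or the use of the input. The authors deposited, per peak, the pileup signal at the summit, a fold ratio over local background, and the −log10 p-value and −log10 q-value, per the file headers, with 1 list per replicate and no pooling recorded there. These values describe and rank peaks within their list.

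Peaks sharing at least 1 bp were merged across lists (Python 3.11.15, pandas 2.3.3, scipy 1.17.1); the peak with the best p-value stood for a list. Merging and gene assignment were tested on simulated lists. Gene spans were read from a RefSeq gene table (TAIR10.1), in which no strand was given here; only distances are printed. Of the shared region centres, 43.2% lay inside protein-coding genes, against 58.8% to 66.3% under 6 shifts of 1000 to 5000 bp. Replicates were compared as 1 group, and no peak had identical ends in 2 lists. All 6 genes and 41 list genes were found by locus; symbols missing from the table are those of the lists.

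The genes named are the 6 members, neighbours of those with peaks, and list genes with a shared region; CCA1, TOE2, PUM18, ARR16, GLK1 and GLK2 fall outside this rule and were named after values were seen. Members and lists were chosen with earlier results of these data known. Counts are set beside the share of all protein-coding genes, with no set test. The exact permutation test flips signs within lists. Alternatives changed the replicates, regions, threshold, summit agreement, flank or measure.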

Additional observations from a re-analysis of the deposited data

How the results depend on the processing

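Of 70 alternative values, 57 kept their direction and stayed within 1.5 times for counts and shares, within 1 SD for folds, or at the same place in the order of regions for pileups and ranks; the cause of the other changes was not tested except where fewer or more regions enter by construction. The count of family members stayed at 4, or was 3 with summits within 100 bp and with the better 50% of each list. Leaving out 1 list asks for fewer peaks, so it could not lose a member. The background share of 1.7% was 4.25% and 12.8% with regions of at least 2 and of any replicate. It was 1.07% with summits within 100 bp and 1.21% with the better 50% of each list. With flanks of 0 and 1000 bp it was 0.583% and 0.987%, and with a replicate left out it was 2.44% to 2.63%. The count of 6 other clock genes was 12 with regions of any replicate. It was 4 with summits within 100 bp and 4 with a flank of 0 bp. Relatives by domain numbered 1 with regions of at least 2 and of any replicate, and 0 to 1 with a replicate left out. By pileup, the far PRR5 region (101 reads) came before PRR7 (92.0 reads). The difference between the PRR5 regions, 0.61, was 0.22 to 0.83 with a replicate left out, lowest without replicate 1. No paired analysis was possible because peak lists were used for the ChIP group only, so groups could not be paired; the PRR5 regions were compared within each list. Median summit pileups of 38 to 40 reads, with library depth unknown, limit any statement on PRR3 and PRR9.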
